A study of Canis lupus familiaris with 2 samples.

Results

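The claudin and tight junction genes were followed in RNA sequencing data from MDCK cells, a dog kidney cell line that forms columnar epithelium, with 1 culture under 2-cm-high medium (here the 2-cm culture) and 1 under 50-cm-high medium (the 50-cm culture). They were chosen by symbol, and all 9 were found among the 23510 features listed with an FPKM value in both cultures. These are CLDN1, CLDN2, CLDN3, CLDN4 and CLDN7 (claudins), OCLN (occludin), F11R (JAM-A), and TJP1 and TJP3 (ZO-1 and ZO-3). The labels name no allele or drug for either group, and in both the cells were grown in serum-containing medium on a semipermeable membrane, and were sampled on day 3. The groups differed in the height of the medium above the cells, which sets the static pressure in cm H2O. The labels describe the 2-cm-high medium as no pressure. The MDCK subline is not given in the labels. Each group had 1 sample, so no value below has a replicate error and no difference could be tested.

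Tight junctions seal the space between neighbouring epithelial cells at the apical end of their lateral membranes. Claudins form the strands, and the kind of claudin sets which ions pass. Claudin-1 and claudin-3 are sealing claudins, claudin-4 and claudin-7 are mostly counted among them although their effect on ion flow varies with the cell line, and claudin-2 forms a pore for small cations and water. Occludin and JAM-A are further membrane proteins of the junction, and ZO proteins are the scaffolds that tie the strands to actin. In kidney, claudin-2 belongs to the leaky proximal tubule, and MDCK sublines of low electrical resistance carry it whereas those of high resistance lack it.

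FPKM counts the fragments on a gene relative to its exon length and to the size of the library, and is thus a level per transcript length, so genes can be compared with each other within a culture. Ratios are 50-cm over 2-cm culture, without a pseudocount. The number of reads is unknown. Among features below 0.1 FPKM in both cultures, the commonest ratio was 1.098. It was taken as the ratio that 1 read in each culture gives, as does any equal number of reads. No member lay within 0.05% of a ratio that 10 or fewer reads in each culture give. The 2 libraries had summed FPKM values of 600496 and 614100, and the median log2 ratio over the 11057 features above 1 FPKM in both cultures was 0.01.

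CLDN2, the pore-forming claudin, differed most of the 9 genes. It had 35.5 FPKM in the 2-cm culture and 17.2 FPKM in the 50-cm culture. This was a ratio of 0.485, or 2.06-fold lower in the 50-cm culture, and -1.04 on the log2 scale. CLDN2 was the only one of the 9 past 2-fold, where 1.28% of the 11057 features were more than 2-fold lower and 0.389% more than 2-fold higher. By level, CLDN2 stood at rank 2895 of these features in the 2-cm culture and at rank 5369 in the 50-cm culture. Its ratio was the 127th lowest. Of the 500 features nearest to CLDN2 in mean log2 FPKM, none had a log2 ratio as low, and the lowest among them was -0.82. That spread runs across genes within a pair of cultures and is not replicate error. In bulk RNA, fewer cells carrying claudin-2 and less claudin-2 RNA per cell cannot be told apart.

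**Figure D1:**
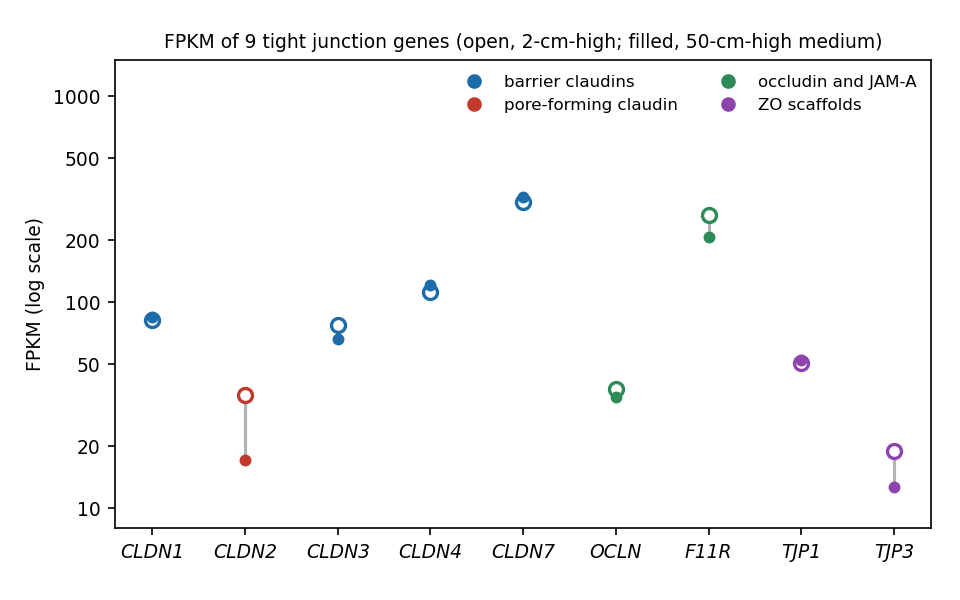
FPKM (y axis, log scale) of the 9 genes (x axis), with open circles for the 2-cm culture and filled circles for the 50-cm culture, each from 1 sample. The circles nearly coincide for CLDN1, CLDN4, CLDN7 and TJP1, and they lie farthest apart for CLDN2 (35.5 and 17.2) and TJP3 (19.01 and 12.7).

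The barrier claudins differed far less than CLDN2. CLDN7, a claudin that binds the adhesion protein EpCAM, was the most abundant of the 9 genes, with 307.8 FPKM in the 2-cm culture and 324.0 FPKM in the 50-cm culture (ratio 1.05). CLDN4, with CLDN3 a receptor of Clostridium perfringens enterotoxin, had 112.5 and 121.8 FPKM (ratio 1.08). CLDN1, required for the water barrier of the skin, had 81.5 and 84.8 FPKM (ratio 1.04). These 3 genes were thus slightly higher in the 50-cm culture, by 4.10% to 8.29%. CLDN3 was the barrier claudin that went the other way, from 77.7 to 66.1 FPKM, or 14.9% lower in the 50-cm culture. Among the 500 features nearest in expression, the standard deviation of the log2 ratio was 0.24 to 0.25 for each of these claudins. Their own log2 ratios lay between -0.23 and 0.11. Of the 500 nearest to CLDN3, 36 (7.2%) had a log2 ratio as low as its own. For CLDN1, CLDN4 and CLDN7, 53%, 42% and 49% had one as high. CLDN1, CLDN4 and CLDN7 stayed higher in the 50-cm culture under each of the 5 other scalings of the libraries. CLDN1 came as close to equality as a ratio of 1.005.

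The order of the 5 claudins by level was CLDN7, CLDN4, CLDN1, CLDN3 and CLDN2 in both cultures. CLDN1 and CLDN3 were close neighbours in the 2-cm culture, at 81.5 and 77.7 FPKM, and farther apart in the 50-cm culture, at 84.8 and 66.1 FPKM. With 1 culture each, no error is available to say which neighbours differ. The gap between CLDN2 and the barrier claudins was wider in the 50-cm culture. The summed FPKM of the 4 barrier claudins was 16.3 times that of CLDN2 in the 2-cm culture and 34.7 times in the 50-cm culture. Taken singly, the ratio of CLDN7 to CLDN2 went from 8.67 to 18.8, that of CLDN4 to CLDN2 from 3.17 to 7.08, that of CLDN1 to CLDN2 from 2.295 to 4.93, and that of CLDN3 to CLDN2 from 2.19 to 3.84. Such ratios within a culture do not depend on how the 2 libraries were scaled to each other by a common factor. On the log2 scale, the difference between CLDN2 and the barrier sum was -1.09. Leaving out each barrier claudin in turn, or averaging their log2 ratios, changed this value by less than 0.1.

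**Figure D2:**
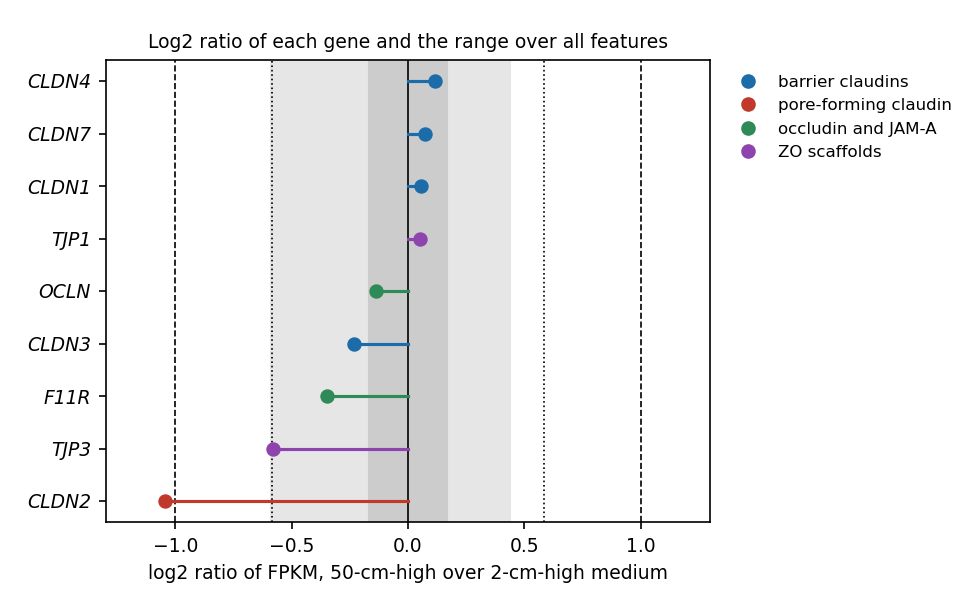
Log2 ratio of FPKM (x axis, 50-cm over 2-cm culture) of the 9 genes (y axis), each from 1 pair of cultures. The dark band holds the middle 50% and the light band the middle 90% of the 11057 features above 1 FPKM in both cultures, dotted lines mark 1.5-fold and dashed lines 2-fold, and CLDN2 (-1.04) alone lies beyond 2-fold.

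Summed over the 23 claudin genes in the files, the claudin level was nearly equal, with 640.8 FPKM in the 2-cm culture and 641.6 FPKM in the 50-cm culture (ratio 1.001). Within this sum, CLDN2 held 5.54% in the 2-cm culture and 2.68% in the 50-cm culture, a difference of -2.86 percentage points. The share of the 4 barrier claudins went from 90.4% to 93.0%. CLDN7 made up close to the same part of the sum as all other claudins together, with 48.0% and 50.5%. CLDN4 held 17.5% and 18.98%, CLDN1 12.7% and 13.2%, and CLDN3 12.1% and 10.3%. The claudin RNA was thus made up of the same leading genes in both cultures, with CLDN2 passing from the fifth to the sixth place behind CLDN12.

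**Figure D3:**
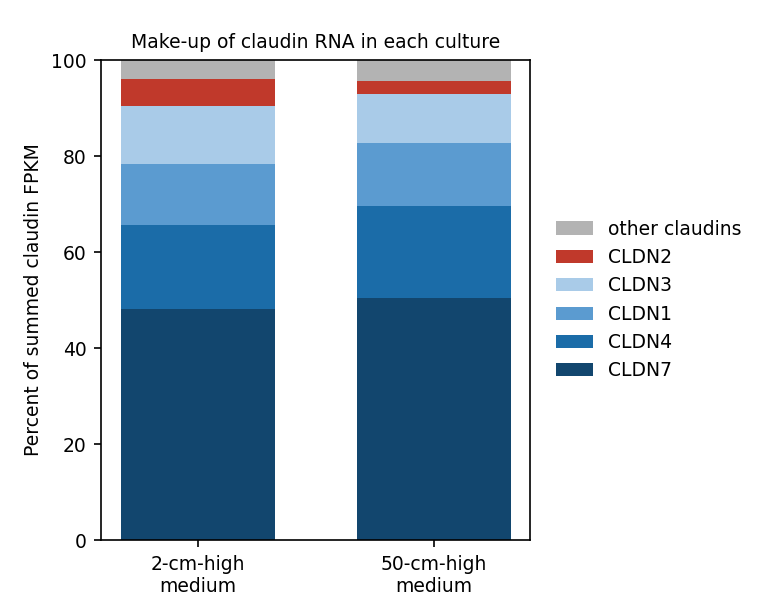
Percent of the summed claudin FPKM (y axis) held by each of the 5 named claudins and by the other claudins together, in the 2-cm-high-medium and the 50-cm culture (1 sample each). The CLDN2 segment is 5.54% of the left bar and 2.68% of the right bar, and CLDN7 is the tallest segment of both.

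The other membrane proteins among the 9 genes were lower in the 50-cm culture, but neither passed 1.5-fold. OCLN, whose product occludin spans the membrane at the strands and helps to steady them, had 38.0 FPKM in the 2-cm culture and 34.5 FPKM in the 50-cm culture (ratio 0.909). F11R had 264.7 and 207.9 FPKM (ratio 0.786), or 21.4% lower. Its product JAM-A is an immunoglobulin-like adhesion protein that binds ZO-1 and the polarity protein PAR-3. By level, F11R was second only to CLDN7 among the 9 genes in both cultures, and its ratio to OCLN was 6.97 and 6.02. Among the 500 features nearest to F11R in expression, 17 (3.4%) had a log2 ratio as low as its -0.35, against 91 (18.2%) for OCLN at -0.14.

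The ZO scaffolds differed from each other. TJP1, whose product ZO-1 links claudins and occludin to actin, had 50.5 FPKM in the 2-cm culture and 52.3 FPKM in the 50-cm culture (ratio 1.04). It reached a ratio of 0.999 when the libraries were scaled to the same sum without their 10 highest features, so its direction is not settled. TJP3, whose product ZO-3 is a relative that mice can live without, was the least abundant of the 9 genes, with 19.01 and 12.7 FPKM (ratio 0.669). It was 1.49-fold lower in the 50-cm culture, just short of 1.5-fold, and each of the 5 other scalings moved it past 1.5-fold, to at most 1.548-fold lower. The ratio of TJP1 to TJP3 went from 2.65 to 4.11. Among the 500 features nearest to TJP3 in expression, 14 (2.8%) had a log2 ratio as low as its -0.58.

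Of the 9 genes, 4 were higher and 5 lower in the 50-cm culture, and their median log2 ratio was -0.14. Over all 11057 features, 47.4% were lower and the median was 0.01. The 9 log2 ratios ran from -1.04 for CLDN2 to 0.11 for CLDN4. CLDN2 was also the only one of the 9 past 1.5-fold, where 5.06% of all features were more than 1.5-fold lower and 2.13% more than 1.5-fold higher. More features were lower than higher beyond 2-fold in the files as deposited, where 23.2% of those past 2-fold were higher, and this share was 38.4% after quantile normalization. CLDN2 was 2.005-fold to 2.138-fold lower under the 11 alternative settings, of which those changing only the FPKM minimum leave its ratio unchanged.

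**Figure D4:**
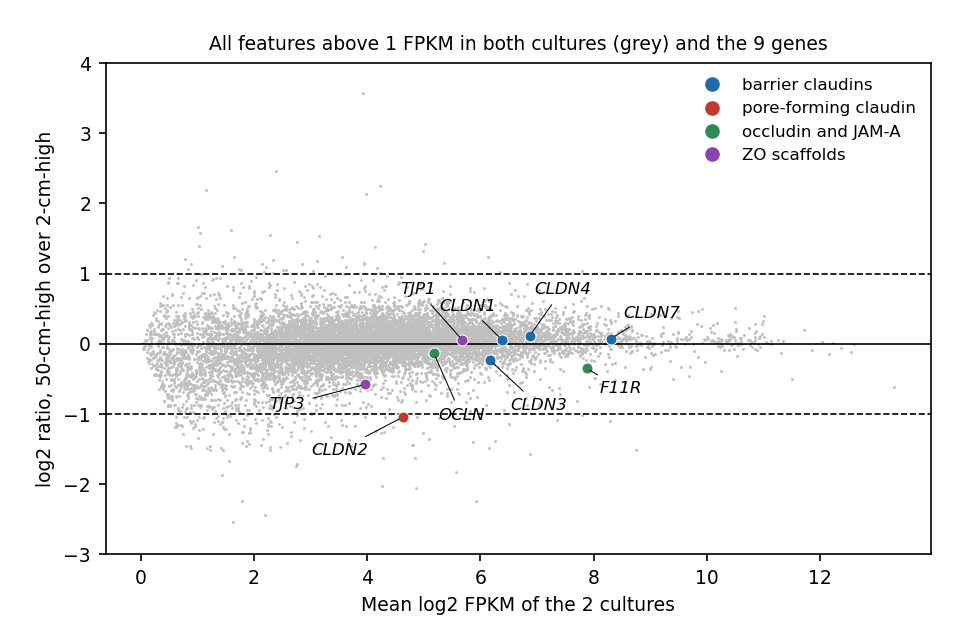
Log2 ratio (y axis, 50-cm over 2-cm culture) against the mean log2 FPKM of the 2 cultures (x axis) for the 11057 features above 1 FPKM in both (grey points), with the 9 genes in colour and dashed lines at 2-fold. Apart from CLDN2, below the lower line, the 9 genes lie inside the lines, and the cloud is wider at low FPKM.

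Apart from CLDN12, the other claudin genes were listed at 5.19 FPKM or less. Of 18 other claudins in the files, 3 were above 1 FPKM in both cultures and none of these passed 1.5-fold. CLDN12, linked to calcium passage in the gut, had 18.1 FPKM in the 2-cm culture and 20.4 FPKM in the 50-cm culture (ratio 1.13). CLDN16, which the thick ascending limb of the kidney needs to take up magnesium, had 5.19 and 4.40 FPKM (ratio 0.848). CLDN6, a claudin of embryonic epithelia, had 1.04 and 1.27 FPKM (ratio 1.22), a ratio that 10 reads against 9 also give. CLDN9, CLDN10, CLDN15, CLDN22 and CLDN23 were below 1 FPKM in both cultures, and their ratios can rest on few reads. That of CLDN9 (0.439) is also given by 2 reads against 5, and that of CLDN23 (1.65) by 3 reads against 2. The ratios of CLDN10, CLDN15 and CLDN22 matched none that 10 or fewer reads in each culture give. CLDN10, which has forms for cations and for anions, was listed at 0.323 and 0.0671 FPKM. CLDN20 was listed at 0 in the 2-cm culture and at 0.117 FPKM in the 50-cm culture, and 9 claudins, CLDN5, CLDN8, CLDN14 and CLDN19 among them, were listed at 0 in both. In both cultures CLDN2 was far above CLDN10 and CLDN15, further claudins known as cation pores.

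Genes of the same junction outside the 9 were read from lists written by hand. Of 54 such genes in the files, 30 were above 1 FPKM in both cultures. None of the 30 passed 2-fold, none was more than 1.5-fold higher, and 3 were more than 1.5-fold lower (ILDR1, MAGI1 and WNK4), beside 5.06% of all 11057 features. The 3 genes were weakly expressed, and the count past 1.5-fold was 0 when 5 FPKM was required in both cultures and 1 with a pseudocount of 1. Over the 30 genes, the median log2 ratio was -0.01, with 14 higher and 16 lower.

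Among the other membrane proteins, ILDR1, whose product angulin-2 marks corners where several cells meet, went from 2.30 to 1.305 FPKM (ratio 0.567). LSR, which encodes the related angulin-1, had 69.3 and 72.3 FPKM (ratio 1.04), and MARVELD2, which encodes tricellulin of the same corners, 9.80 and 8.51 FPKM (ratio 0.869). CXADR, an adhesion protein and virus receptor, had the highest level of this list, with 120.8 and 115.0 FPKM (ratio 0.952). JAM3, a relative of F11R, was near the lower limit, with 1.04 and 0.634 FPKM (ratio 0.612). Over the 6 members above 1 FPKM in both cultures, the median log2 ratio was -0.04.

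Among the other plaque proteins, MAGI1, a scaffold with several PDZ domains, went from 2.26 to 1.44 FPKM (ratio 0.639). CGN, which encodes the actomyosin-binding protein cingulin and had the highest mean level of this list, had 61.3 and 54.9 FPKM (ratio 0.895). The median log2 ratio of the 7 members above 1 FPKM in both was -0.16, and it was -0.01 when 5 FPKM was required.

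Among the regulators, WNK4, a kidney kinase that can phosphorylate claudins, went from 4.29 to 2.34 FPKM (ratio 0.545). SPINT2, a protease inhibitor that protects EpCAM and claudin-7 and the most abundant of this list, had 400.4 and 388.2 FPKM (ratio 0.970). EPCAM itself had 252.8 and 215.5 FPKM (ratio 0.852). CSDA, the older symbol of YBX3, encodes ZONAB, the transcription factor that ZO-1 holds at the junction, and had 224.7 and 267.7 FPKM (ratio 1.19). GRHL2, a transcription factor of epithelial genes that include claudin-4, had 11.7 and 9.57 FPKM (ratio 0.819). The 14 regulators above 1 FPKM in both had a median log2 ratio of 0.002, which turned slightly negative under 4 of the 5 other scalings.

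**Figure D5:**
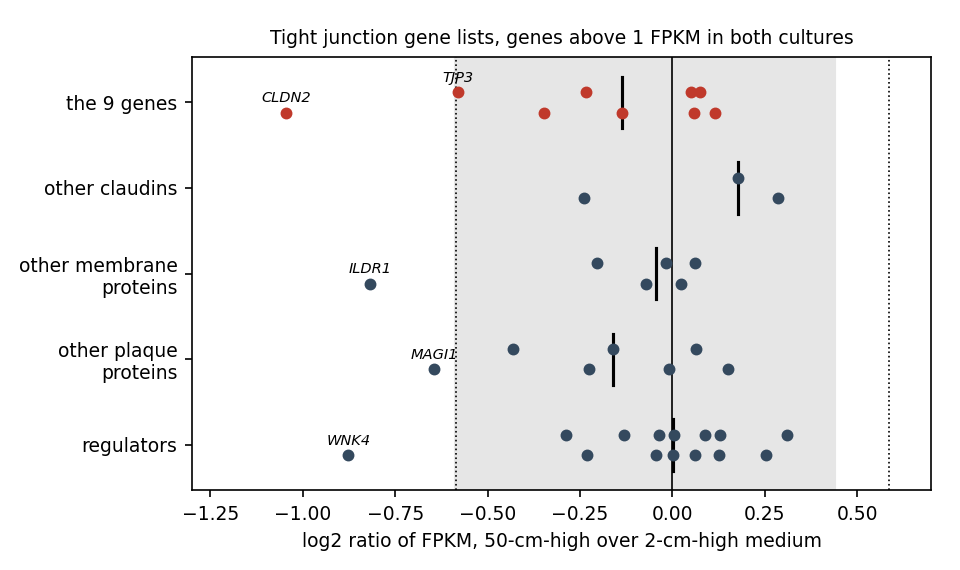
Log2 ratio of FPKM (x axis, 50-cm over 2-cm culture) for the genes above 1 FPKM in both cultures of each list (y axis), 1 point a gene, with a vertical bar at the median of the list. The grey band holds the middle 90% of the 11057 features and dotted lines mark 1.5-fold, beyond which lie CLDN2, ILDR1, MAGI1 and WNK4, all on the lower side.

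The label of the cells was checked against marker genes. Of the 9 genes taken as markers of renal epithelium, 8 were above 1 FPKM in both cultures. The highest was KRT8 at 1641 and 1561 FPKM, and CDH16 was the lowest. CDH1, which encodes E-cadherin, had 211.5 and 228.9 FPKM, and PAX8, a renal transcription factor, 65.1 and 57.6 FPKM. CDH16, the kidney-specific cadherin, was at 1.96 FPKM in the 2-cm culture and 0.676 FPKM in the 50-cm culture. CDH16 was thus lower in the same culture as CLDN2, and any part of it in the CLDN2 result was not tested. Of the 8 markers above 1 FPKM in both cultures, 7 were also lower in the 50-cm culture and 1 was higher. None of these 8 passed 1.5-fold. CDH16, with a ratio of 0.345, was past it but is not among the 8, since it was below 1 FPKM in the 50-cm culture. Of 8 markers of fibroblasts, muscle, blood and endothelium in the files, the highest value in either culture was 0.187 FPKM (ACTA2, smooth muscle actin), PTPRC, PECAM1 and COL3A1 were at 0 in both, and their summed level was 0.347 and 0.317 FPKM.

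By position, several of the 9 genes lie beside a relative. In the RefSeq gene table of the dog assembly UU_Cfam_GSD_1.0, used for gene order only since the reads were mapped to another build, CLDN3 and CLDN4 are neighbours, CLDN1 lies beside CLDN16, and OCLN beside MARVELD2. CLDN3 and CLDN4 lay on opposite sides of equality, with ratios of 0.851 and 1.08, and so did CLDN1 and CLDN16, with 1.04 and 0.848. OCLN and MARVELD2 were both lower in the 50-cm culture, with 0.909 and 0.869. Of the 18 protein-coding genes next to the 9, 14 were found in the files and 11 were above 1 FPKM in both cultures. CLDN3 and CLDN4 are counted in each of these numbers, as neighbours of each other. The only one past 1.5-fold was RIPPLY1, beside CLDN2, named here after its values were seen. Of all 11057 features, 5.06% were more than 1.5-fold lower and 2.13% more than 1.5-fold higher. RIPPLY1 encodes a transcriptional repressor of somite formation, and went from 8.53 to 3.75 FPKM (ratio 0.439), close to the ratio of 0.485 for CLDN2. MORC4, on the other side of CLDN2, had 5.17 and 4.43 FPKM (ratio 0.858). The gene models used for counting are not stated, and whether the models of CLDN2 and RIPPLY1 share reads was not tested. The other 10 neighbours above 1 FPKM in both cultures, CLDN3 and CLDN4 among them, had ratios from 0.811 to 1.31.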

How the data were processed

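RNA from MDCK cells in 2-cm-high and 50-cm-high medium (1 sample each, sampled on day 3 per the labels) was sequenced by the authors as 75-base single-end reads from stranded mRNA libraries. The submitters' notes name TopHat2 2.0.13, Bowtie2 2.2.3, SAMtools 0.1.19 and Cuffnorm 2.2.1 with the dog build CanFam3.1. The deposited FPKM values were made by the authors with Cuffnorm. The gene annotation, the scaling between libraries, the use of strand in counting and the reads per library are not given in the sources used here.

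Ratios were computed from the deposited FPKM values, in Python 3.11.15 with numpy 2.4.6 and pandas 2.3.3, and drawn with matplotlib 3.10.9. Features above 1 FPKM in both cultures were compared and counted past 2-fold or 1.5-fold. With 1 sample per group no test was made. The 500 features nearest in mean log2 FPKM describe the spread across genes.

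The members and lists were chosen with earlier results of these data known. Named are the 9 members and, of the other lists, genes above 1 FPKM in at least one culture and past 1.5-fold, claudins above 1 FPKM in both, and the most abundant gene of each list. Further genes (MARVELD2, LSR, EPCAM, CSDA, GRHL2, the low claudins, the markers and the neighbours) were named later for context. Alternatives changed the pseudocount, the FPKM minimum and the scaling. The shared functions for the settings, the fold counts and the read step were tested on simulated data, and the other steps were not. The 9 members all matched the RefSeq gene table by symbol. No sequences were used here.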

Additional observations from a re-analysis of the deposited data

How the results depend on the processing

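With 1 culture per medium height, no replicate could be left out and no paired analysis applied. The 9 genes all exceed 5 FPKM in both cultures, so no FPKM minimum removed one. CLDN2 was the only one past 2-fold under all 11 settings tried. Those that changed only the FPKM minimum could not alter this, since they leave each ratio as it was. The count past 1.5-fold was 2 in place of 1 under the 5 other scalings, TJP3 joining CLDN2. These were median recentring, the same sum with and without the 10 highest features, the upper quartile and quantile normalization. Under these scalings, in that order, 802, 825, 846, 830 and 719 of the 11057 features passed 1.5-fold, against 795 in the main comparison. The difference in the CLDN2 share of claudin FPKM was -2.97 percentage points over the 5 named claudins only. Genes of the other tight junction lists past 1.5-fold numbered 3 of 30 in the main comparison. They numbered 8 above 0 FPKM in both cultures, 6 above 0.1 FPKM, 0 above 5 FPKM and 1 with a pseudocount of 1. These settings admit, remove or damp weakly expressed genes. All other values for the 9 genes kept their direction, except TJP1 (log2 ratio -0.0008 with the same sum after leaving out the 10 highest features). Over all features, 185 were past 2-fold, against 1216 above 0 FPKM in both cultures, 730 above 0.1 FPKM, 62 above 5 FPKM, 356 above 1 FPKM in at least one culture and 92 with a pseudocount of 1. Past 1.5-fold there were 795, against 2576, 1900, 336 and 514 at 0, 0.1 and 5 FPKM and with a pseudocount of 1. The features compared numbered 11057 in the main comparison and with a pseudocount. They numbered 14306, 13280 and 8751 above 0, 0.1 and 5 FPKM in both cultures, and 11508 above 1 FPKM in at least one. Reads per library are unknown, so no counting interval can be given, and a low FPKM value may rest on few reads. Culture, library and medium height cannot be told apart.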
